A study of Homo sapiens with 8 samples.

Results

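Metallothioneins and the genes that regulate zinc were followed in A549 cells, an established epithelial line from a human lung adenocarcinoma, with and without dexamethasone. The members were taken by gene name: the metallothioneins MT1E, MT1F, MT1G, MT1M, MT1X and MT2A, the transcription factor MTF1, and the zinc transporters SLC30A1, SLC39A10 and SLC39A14. Of these 10 genes, 8 were found among the 19158 genes of the files, and MT1E and MT1M are not analysed here. The cells were labelled wild type and grown in DMEM with serum. One group of 4 wells was left untreated, and the other group of 4 wells received dexamethasone, a synthetic glucocorticoid, at 1 µM for 48 h. Each well gave 1 library of total RNA depleted of ribosomal RNA, both groups use the well numbers 1, 3, 4 and 5, and every library had the same batch label. The p-values measure the spread between wells of 1 line.

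Metallothioneins are small cysteine-rich proteins that bind zinc, copper and cadmium and so buffer free metal in the cell. MTF1 is the transcription factor that senses zinc and drives metallothionein genes and SLC30A1 through short metal-response elements in their promoters. SLC30A1 (ZnT1) exports zinc across the plasma membrane, while SLC39A10 (ZIP10) and SLC39A14 (ZIP14) bring it into the cytosol. Metallothionein genes are also known as targets of glucocorticoids.

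RefSeq promoters (GRCh38.p14) of 5 of the 10 members were used here, those of MT1X, MT2A, MTF1, SLC30A1 and SLC39A10. Promoters of the other members were not searched. The 250 bases before the start site were searched on both strands for the metal-response core, TGCACNC or TGCGCNC. The sequences below are shown because they differ in how many cores they carry and because their genes differ in level, and capitals mark each core, which reads in reverse complement where it lies on the other strand. The windows are chr16:56608334-56608583 (plus strand) for MT2A, chr16:56682220-56682469 (plus strand) for MT1X, chr1:211579162-211579411 (minus strand) for SLC30A1, and chr16:56669564-56669813 (plus strand) for MT1H, a metallothionein that is no member and was listed at 0 in every library.
MT2A: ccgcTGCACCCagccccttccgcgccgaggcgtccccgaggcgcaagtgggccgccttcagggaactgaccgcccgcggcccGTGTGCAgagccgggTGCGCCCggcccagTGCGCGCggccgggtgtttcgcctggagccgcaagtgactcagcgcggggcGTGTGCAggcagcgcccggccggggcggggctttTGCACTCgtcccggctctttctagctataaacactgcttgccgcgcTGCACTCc
MT1X: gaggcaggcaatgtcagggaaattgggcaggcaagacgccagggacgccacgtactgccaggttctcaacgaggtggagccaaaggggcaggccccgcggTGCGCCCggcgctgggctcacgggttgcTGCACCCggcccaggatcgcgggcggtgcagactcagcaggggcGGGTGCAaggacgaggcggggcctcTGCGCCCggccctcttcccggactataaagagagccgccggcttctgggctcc
SLC30A1: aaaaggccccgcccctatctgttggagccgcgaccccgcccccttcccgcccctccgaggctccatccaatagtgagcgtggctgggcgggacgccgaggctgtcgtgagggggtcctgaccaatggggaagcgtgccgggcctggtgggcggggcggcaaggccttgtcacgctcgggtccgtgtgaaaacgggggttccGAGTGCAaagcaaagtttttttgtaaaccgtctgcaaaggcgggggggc
MT1H: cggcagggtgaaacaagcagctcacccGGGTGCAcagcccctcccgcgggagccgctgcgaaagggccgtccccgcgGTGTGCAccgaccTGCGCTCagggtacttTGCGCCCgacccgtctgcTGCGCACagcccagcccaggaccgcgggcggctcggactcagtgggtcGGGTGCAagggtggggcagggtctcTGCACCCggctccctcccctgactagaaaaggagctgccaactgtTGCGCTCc
MT2A held 7 cores, MT1X held 4 and SLC30A1 held 1. Neither MTF1 nor SLC39A10, which has 2 annotated starts in the table, held a match. Of 35116 promoter windows of the same length, 24.8% held at least 1 core and 0.37% held at least 4. MT1H, listed at 0, held 8 cores. The metallothioneins MT4, also listed at 0, and MT1B, near 0, held 3 each in their own windows, which are not shown. Whether the number of cores goes with the level of the gene was not tested. The glucocorticoid response palindrome in a strict form, GNACA and TGTNC with NNN between them, was in none of these windows and in 0.327% of all of them. Bases farther than 250 from the start site were not searched, so a palindrome there would be missed. An AP-1 motif (TGACTCA or TGAGTCA) lay in the MT2A window and in that of MT1B, as in 4.2% of all windows. A TATAAA box lay in the MT2A and MT1X windows and in those of MT1B and MT4, as in 10.7% of all.

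MT2A and MT1X, which had the highest levels of the metallothioneins analysed here, rose strongly after dexamethasone, and MT1F rose from a low level. Values were read as FPKM, the fragments counted on a gene per kilobase of its transcript and per unit of library depth, after a further scaling between libraries. Their unit is not given in the sources used here and was inferred from the values, so levels set between genes rest on that reading. In bulk RNA a change in the number of cells that express a gene and a change in RNA per cell cannot be told apart. Differences are log2 fold changes of FPKM + 1, tested with limma across 12161 genes with Benjamini-Hochberg adjustment, and genes below an adjusted p of 0.05 are those called.

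MT2A (ENSG00000125148, GRCh38 chromosome 16, 56608199 to 56609497, plus strand) encodes a metallothionein that is abundant in many human tissues. Its FPKM were 162.1, 148.3, 145.5 and 322.4 in untreated wells 1, 3, 4 and 5, and 627.8, 682.0, 698.8 and 1124 in the dexamethasone wells of the same numbers. The lowest dexamethasone well lay above the highest untreated well, and well 5 was the highest of each group. The mean went from 194.6 ± 85.6 to 783.2 ± 229 FPKM (SD, n = 4), a ratio of 4.03. Its log2 fold change was 2.05 (SE 0.29, 95% interval 1.39 to 2.704, limma adjusted p = 0.000759), and it moved from rank 253 to rank 43 in level among all genes.

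MT1X (ENSG00000187193, chromosome 16, 56682424 to 56684196, plus strand) is a metal-induced member of the MT1 subfamily. The untreated wells held 26.47, 25.26, 22.79 and 48.14 FPKM, and the dexamethasone wells held 224.7, 267.9, 253.1 and 412.2 FPKM. Every dexamethasone well was above every untreated well, and the gap between groups was wide compared with the spread in either. The mean went from 30.7 ± 11.8 to 289.5 ± 83.8 FPKM (SD, n = 4), a ratio of 9.44. With a log2 fold change of 3.22 (SE 0.26, 95% interval 2.63 to 3.81, limma adjusted p = 2.73e-05), MT1X ranked 33rd among the rises of all tested genes, while MT2A ranked 92nd. An uncharacterised gene on the same strand overlaps MT1X in GENCODE v44, and reads of both cannot be told apart by strand.

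MT1F (ENSG00000198417, chromosome 16, 56657694 to 56660698, plus strand) was much lower. It had 2.19, 1.94, 2.63 and 3.41 FPKM in untreated wells and 4.57, 4.87, 4.41 and 8.84 FPKM in dexamethasone wells. The groups did not overlap, but dexamethasone well 5 stood well above the other wells of its group. The mean went from 2.54 ± 0.644 to 5.67 ± 2.12 FPKM (SD, n = 4), with a log2 fold change of 0.88 (SE 0.22, 95% interval 0.40 to 1.37, limma adjusted p = 0.0141). MT1G (ENSG00000125144, chromosome 16, 56666731 to 56668065, minus strand) was listed at 0 in all 8 libraries, so it entered no test.

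**Figure D1:**
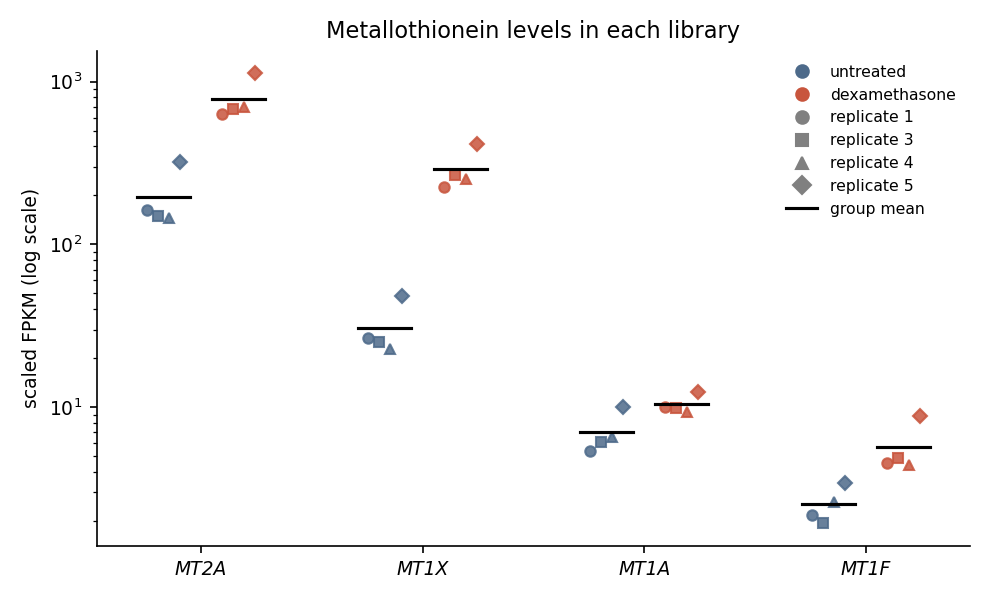
FPKM of MT2A, MT1X, MT1A and MT1F in each well (symbols give the replicate number), on a log axis, with the group mean as a line. For MT2A, MT1X and MT1F every dexamethasone well lies above every untreated well, while for MT1A the groups overlap between 9.37 and 10.08 FPKM.

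The 7 members that could be tested had at least 0.5 FPKM in 4 or more libraries. Of these 7, 3 were called, all higher, where 26.7% of all tested genes were called, 12.4% higher and 14.3% lower. The members called were MT1F, MT1X and MT2A, and none of the 4 zinc regulators was. Groups did not overlap for 4 of the 7, all higher, where this held for 31.5% of all tested genes with 14.5% higher and 17% lower. The median log2 fold change of the 7 was 0.41, against 0.01 over all tested genes.

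Because metallothionein genes resemble one another, the sum over the family was also taken. The summed FPKM of MT1F, MT1G, MT1X and MT2A was 190.8, 175.5, 170.9 and 374.0 in untreated wells and 857.1, 954.8, 956.2 and 1545 in dexamethasone wells. All dexamethasone wells exceeded all untreated wells. Its mean went from 227.8 ± 97.8 to 1078 ± 315 FPKM (SD, n = 4), a ratio of 4.73, and the mean difference on the log2 scale was 2.29 with an SD within groups of 0.46. No p is given for this sum, since it is a score over chosen genes. Summing every metallothionein gene in the files gave a ratio of 4.64, and weighting each by transcript length gave 4.74. The 4 genes held 0.0609% ± 0.0144 of all FPKM in untreated wells and 0.311% ± 0.0722 in dexamethasone wells (SD, n = 4).

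The make-up of the metallothionein sum shifted from MT2A towards MT1X. MT2A made up 84.5% to 86.2% of the sum in untreated wells and 71.4% to 73.3% in dexamethasone wells. MT1X made up 12.9% to 14.4% in untreated wells and 26.2% to 28.1% in dexamethasone wells, so the groups were far apart compared with the spread in each. The share of MT1F was 1.18% ± 0.262 untreated and 0.519% ± 0.0464 with dexamethasone (SD, n = 4).

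**Figure D2:**
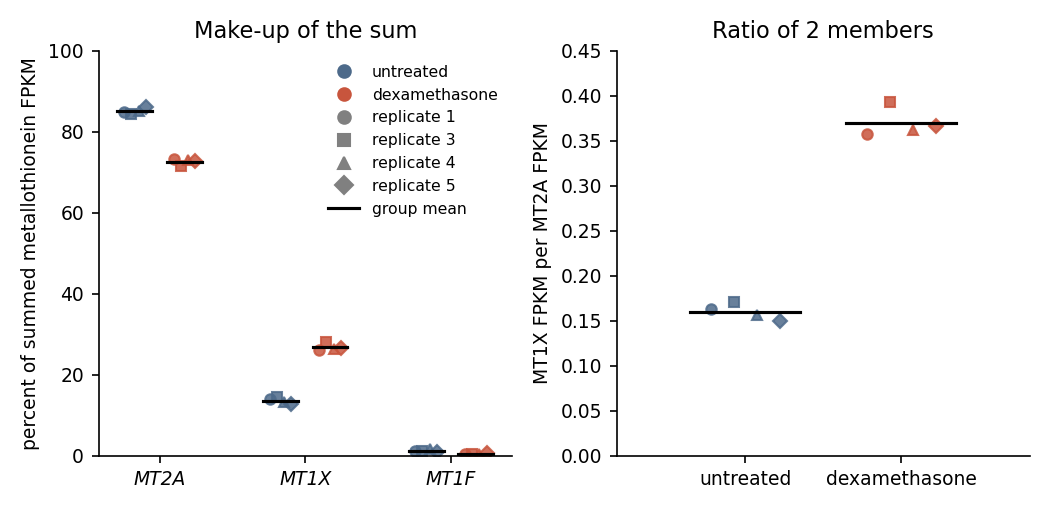
Percent of the metallothionein sum contributed by MT2A, MT1X and MT1F in each well (left) and the ratio of MT1X to MT2A (right), with lines at the group means. The ratio lies between 0.149 and 0.170 in the 4 untreated wells and between 0.358 and 0.393 in the 4 dexamethasone wells.

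Ratios between members remove what the genes of 1 library share, such as its scaling. MT1X per MT2A was 0.163, 0.170, 0.157 and 0.149 in untreated wells and 0.358, 0.393, 0.362 and 0.367 in dexamethasone wells. Well 5, which was high for both genes, lay at or near the range of its group's other wells in this ratio. The mean went from 0.160 ± 0.00902 to 0.370 ± 0.0157 (SD, n = 4), a log2 difference of 1.21 (two-sided exact permutation p = 0.0286). Both other ratios also separated the groups: MT1X per MT1F went from 11.97 ± 2.35 to 52.04 ± 5.00, a log2 difference of 2.14, and MT2A per MT1F from 75.1 ± 16.03 to 140.7 ± 13.1, a log2 difference of 0.93 (SD, n = 4, exact permutation p = 0.0286 for each). These 3 comparisons were chosen after the values had been seen, so their p-values are no independent test. Adjusted over the 3, each p remained 0.0286, the smallest that 4 wells against 4 allow.

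How far reads could be shared was read from the annotated transcripts (GENCODE v44), which are short, at 401 bases for MT2A, 404 for MT1X and 425 for MT1F. The coding sequences of MT1X and MT2A have 186 bases each and are identical at 172 of these (92.5%). MT1F was identical to MT2A at 91.4% and to MT1X at 88.7% of coding positions. Of all stretches of 50 bases, 16.6% of those in MT1X, 4.55% in MT2A, 6.12% in MT1F and 19.1% in MT1G occurred exactly in another metallothionein transcript. At 100 bases none did for any of the 4. The reads are paired, of 150 bases each per the labels, and how the counting treated a read that matched several genes is not given in the sources used here, so levels of single MT1 genes are less certain than their sum.

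The other metallothionein genes in the files were either low or at 0. MT1A (ENSG00000205362), a metal-induced relative of MT1X, had 5.40, 6.15, 6.55 and 10.08 FPKM untreated and 10.03, 9.90, 9.37 and 12.35 FPKM with dexamethasone. The groups overlapped through untreated well 5 alone. Its mean went from 7.05 ± 2.08 to 10.4 ± 1.33 FPKM (SD, n = 4), with a log2 fold change of 0.53 (limma, SE 0.18, adjusted p = 0.0565), and without untreated well 5 this was 0.70 (adjusted p = 0.00261). MT1A was called in 8 of 19 alternative analyses, among them a fit with a replicate block (limma adjusted p = 0.00731). MT1B was listed at 0 in the untreated wells and at 0.10 and 0.17 FPKM in dexamethasone wells 1 and 3, and MT3, the brain metallothionein, did not exceed 0.116 FPKM. MT1H, MT1HL1 and MT4 were listed at 0 in all 8 libraries.

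Except for MT1HL1, these genes lie in 1 cluster on chromosome 16, from MT4, which starts at -43.1 kb from the MT2A start, to MT1X at 74.2 kb. Levels in the cluster were not graded by position: MT1G and MT1H, 58.5 and 61.6 kb from MT2A, were at 0, next to MT1X. The flanking genes were read for comparison and chosen after the data had been seen. BBS2, a subunit of the ciliary BBSome, has its lower coordinate at -141.4 kb from the MT2A start and lies on the minus strand. It went from 8.39 ± 0.859 to 13.3 ± 1.199 FPKM (SD, n = 4, log2 fold change 0.61, SE 0.12, limma adjusted p = 0.00508). NUP93, a nuclear pore protein that starts at 121.9 kb, went from 47.0 ± 15.2 to 23.2 ± 4.61 FPKM (SD, n = 4, log2 fold change -0.96, SE 0.23, limma adjusted p = 0.0123). OGFOD1 and HERPUD1, farther out, had log2 fold changes of 0.15 and 0.29 (limma adjusted p = 0.364 and 0.403). These values shifted with single libraries: OGFOD1 was at 0.08 without untreated well 5, and HERPUD1 ranged from 0.16 without untreated well 1 to 0.52 without dexamethasone well 3 (adjusted p = 0.682 and 0.0756). The nearest expressed neighbours on the 2 sides therefore moved in opposite directions, with smaller log2 fold changes than MT1X and MT2A.

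**Figure D3:**
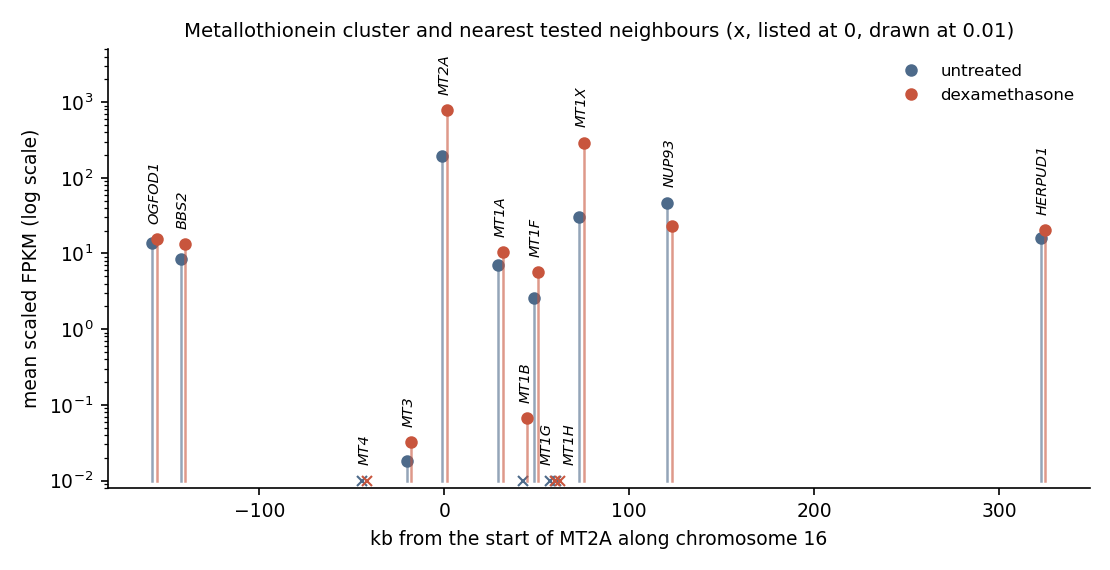
Mean FPKM (log axis) of untreated and dexamethasone wells, n = 4 each, for the metallothionein genes and their flanking genes. Genes are placed by the distance of their lower coordinate from that of MT2A in kb, whichever strand they lie on. Crosses mark genes listed at 0, such as MT1G and MT1H, which lie between MT2A and MT1X, the analysed metallothioneins with the highest levels.

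Among the zinc regulators, MTF1, SLC30A1, SLC39A10 and SLC39A14 each had a higher mean with dexamethasone, but none passed the test. MTF1 (ENSG00000188786, chromosome 1, 37809567 to 37859620, minus strand) had 2.48, 2.51, 2.77 and 2.11 FPKM untreated and 3.11, 3.38, 3.01 and 2.91 FPKM with dexamethasone. The groups did not overlap, though by a narrow margin. The mean was 2.47 ± 0.273 against 3.10 ± 0.201 FPKM (SD, n = 4), a ratio of 1.26, with a log2 fold change of 0.24 (SE 0.11, 95% interval -0.0027 to 0.49, limma adjusted p = 0.131). With the trend on transcript length removed from each library it was 0.08 (adjusted p = 0.590), and with the trend on GC content removed it was 0.21 (adjusted p = 0.0505). MTF1 was called in none of the 19 alternative analyses.

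SLC30A1 (ENSG00000170385, chromosome 1, 211571568 to 211578742, minus strand) had 6.27, 7.97, 6.91 and 2.85 FPKM untreated and 8.42, 7.95, 9.19 and 6.15 FPKM with dexamethasone. Well 5 was the lowest of each group, and the groups overlapped. The mean was 5.997 ± 2.22 against 7.93 ± 1.29 FPKM (SD, n = 4), with a log2 fold change of 0.41 (SE 0.25, 95% interval -0.16 to 0.98, limma adjusted p = 0.261). Without untreated well 5 the log2 fold change was 0.14. The interval of SLC30A1 ended below the lower ends of those of MT2A and MT1X, so a rise as large as theirs lies outside it. The difference itself was not tested.

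SLC39A10 (ENSG00000196950, chromosome 2, 195575977 to 195737702, plus strand) had 6.04, 8.57, 7.05 and 3.36 FPKM untreated and 9.84, 5.72, 10.43 and 5.67 FPKM with dexamethasone. Its dexamethasone wells fell into a higher and a lower pair, and the groups overlapped. The log2 fold change was 0.31 (SE 0.28, 95% interval -0.31 to 0.93, limma adjusted p = 0.430) and turned to -0.052 with the trend on GC content removed. Without untreated well 5 it was 0.08. SLC39A14 (ENSG00000104635, chromosome 8, 22367249 to 22434129, plus strand) was the most abundant of the 4, at 31.93, 34.05, 19.52 and 14.40 FPKM untreated and 36.17, 20.78, 37.47 and 18.32 FPKM with dexamethasone. Its wells spread as widely within groups as between them. The log2 fold change was 0.18 (SE 0.32, 95% interval -0.54 to 0.90, limma adjusted p = 0.698), and it was -0.044 without untreated well 5. SLC30A1 per SLC39A10, exporter over importer, was 0.948 ± 0.0806 untreated and 1.05 ± 0.247 with dexamethasone (SD, n = 4), and the groups overlapped.

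**Figure D4:**
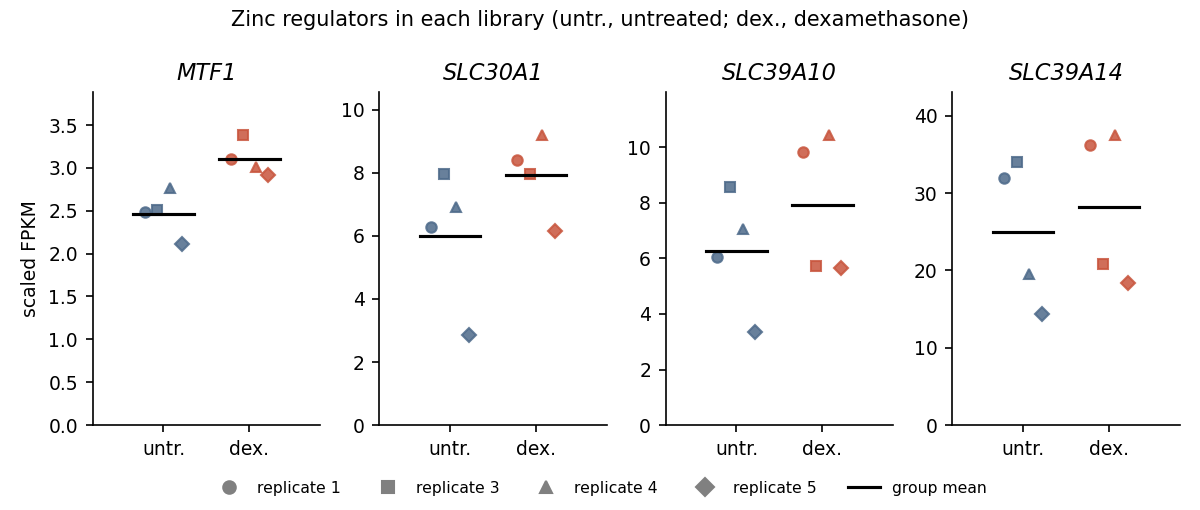
FPKM of MTF1, SLC30A1, SLC39A10 and SLC39A14 in each well, with the group mean as a line. The groups are apart for MTF1, between 2.77 and 2.91 FPKM, and overlap for the 3 transporters, whose wells numbered 5 lie at or near the bottom of each group.

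In order of untreated level per length, MT2A stood first at 194.6 FPKM, followed by MT1X at 30.7 and SLC39A14 at 25.0 FPKM, which overlapped. SLC39A10 at 6.26 and SLC30A1 at 5.997 FPKM did not differ beyond their spread, nor did MT1F at 2.54 and MTF1 at 2.47 FPKM. SLC30A1 and SLC39A10 overlapped MT1F through untreated well 5, the lowest for both transporters and the highest for MT1F. With dexamethasone, MT1X at 289.5 FPKM stood clear of SLC39A14 at 28.2 FPKM, and MT1F at 5.67 FPKM stood above MTF1 at 3.10 FPKM with no overlap. SLC39A10 and SLC30A1 overlapped again, at 7.92 and 7.93 FPKM, and MT1F reached into the range of both in well 5 alone.

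In the libraries numbered 5, MT1F, MT1X and MT2A were the highest and the 4 zinc regulators the lowest of their group, the latter by a narrow margin for MTF1, SLC39A10 and SLC39A14 in dexamethasone well 5. Against the mean of the other 3 wells, untreated well 5 had 2.12 times the MT2A level and 1.94 times the MT1X level, and dexamethasone well 5 had 1.68 and 1.66 times. For SLC30A1 the same factors were 0.404 and 0.722, for SLC39A10 they were 0.465 and 0.654, and for SLC39A14 they were 0.505 and 0.582. Without both libraries MT1F, MT1X and MT2A were still the members called. Other genes with transcripts under 600 bases held 14.0% of all FPKM in untreated well 5, against 9.32% to 10.3% in the other untreated wells, and 8.65% in dexamethasone well 5, against 7.29% to 7.42%. The part of transcript length in these levels was not tested. The 209 tested genes with transcripts under 600 bases, metallothioneins left out, had a median log2 fold change of -0.11 between the groups. Of these tested genes 4.31% were called higher.

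Among the 5 genes whose variation within groups was most like that of the metallothionein sum were FAM160B2, ABCF2, HGS and CCDC86. Over 8 libraries, each group centred on its own mean, Pearson's r with the sum was 0.998 or more for each of these 4, among 11277 genes ranked. These values describe the 8 libraries, and the genes share each library's depth and composition. FAM160B2 had 22.6 FPKM in untreated well 5 and 12.1 to 13.3 FPKM in the other untreated wells. Without both libraries numbered 5 r was between 0.945, for CCDC86, and 0.994, for FAM160B2, over 6 libraries. Among the members, r of MT1F with the sum went from 0.844 over 8 libraries to -0.179 over these 6. Likeness within groups did not extend to the treatment: FAM160B2 had a log2 fold change of -0.04 (limma adjusted p = 0.919), and CCDC86 fell by 0.74 on the log2 scale (limma adjusted p = 0.0247).

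Of 53 tested entries in lists of other metal-handling genes, 5 were called higher and 5 lower, 18.9% in all against 26.7% of all tested genes, with a median log2 fold change of 0.03. With the GC trend removed the counts were 19 of the 53 and 4524 of all 12161, and with a replicate block they were 18 and 5747. In the SLC30 family of zinc exporters, 1 of 6 tested genes was called, lower. This was SLC30A3, which loads zinc into vesicles. It had 1.13, 1.52, 2.05 and 2.74 FPKM untreated and 0.358, 0.692, 0.301 and 0.794 FPKM with dexamethasone, with a log2 fold change of -0.88 (limma, SE 0.18, adjusted p = 0.00654). In the SLC39 family of zinc importers, 1 of 9 tested genes was called, higher. SLC39A8 (ZIP8), the closest relative of SLC39A14, had 6.55, 7.36, 7.68 and 4.48 FPKM untreated and 15.78, 14.59, 14.12 and 11.37 FPKM with dexamethasone. No dexamethasone well was as low as any untreated well. Its mean went from 6.52 ± 1.44 to 14.0 ± 1.87 FPKM (SD, n = 4), a ratio of 2.14 and a log2 fold change of 1.01 (limma, SE 0.17, adjusted p = 0.00231).

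Among copper-handling genes 1 of 13 tested entries was called (7.69%), against 26.7% of all tested genes. ATP7B, a copper-exporting ATPase, went from 1.63 ± 0.221 to 2.48 ± 0.256 FPKM (SD, n = 4, log2 fold change 0.40, limma adjusted p = 0.0228), a call that was lost without untreated well 4 (adjusted p = 0.0665) and without dexamethasone well 1 (0.0705), 3 (0.0522) or 4 (0.0508), and with the length trend removed (0.0934). Among iron-handling genes 2 of 16 were called higher and 2 lower, 25% in all, near the share over all tested genes. CYBRD1, a ferric reductase, went from 10.48 ± 2.51 to 21.0 ± 3.60 FPKM (log2 fold change 0.95, limma adjusted p = 0.00666, SD, n = 4). NCOA4, the receptor that carries ferritin to autophagy, went from 32.9 ± 3.67 to 49.4 ± 2.69 FPKM (SD, n = 4, limma adjusted p = 0.00741). FTL, the ferritin light chain, went the other way, from 8287 ± 2826 to 3978 ± 459 FPKM (SD, n = 4, log2 fold change -1.01, limma adjusted p = 0.0132). FTH1, the ferritin heavy chain, was not called. It went from 1774 ± 250 to 2553 ± 360 FPKM without overlap of the groups (SD, n = 4, log2 fold change 0.53, limma adjusted p = 0.0605). STEAP1, related to metal reductases, had a log2 fold change of -0.76 (limma adjusted p = 0.0467) with overlapping groups, and was no longer called in 11 of 19 alternative analyses.

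Of 8 metal-stress genes, 1 was called higher and 2 lower, 37.5% in all against 26.7% of all tested genes. HMOX1, heme oxygenase and a known responder to cadmium and heme, went from 114 ± 31.2 to 61.6 ± 14.3 FPKM (SD, n = 4, log2 fold change -0.87, limma adjusted p = 0.0155), and it was not called without dexamethasone well 1 (adjusted p = 0.0507). HSPA1B, an inducible heat-shock protein, had a log2 fold change of -0.77 (limma adjusted p = 0.00837), and shares near-identical sequence with HSPA1A, which was at 1.47 FPKM in untreated well 4 and at 164.4 to 230.4 FPKM in the other untreated wells. BAG3, a co-chaperone, went from 46.8 ± 6.01 to 68.9 ± 8.46 FPKM (SD, n = 4, log2 fold change 0.55, limma adjusted p = 0.0185), a call lost without untreated well 1 (adjusted p = 0.0512) or 4 (0.0532).

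**Figure D5:**
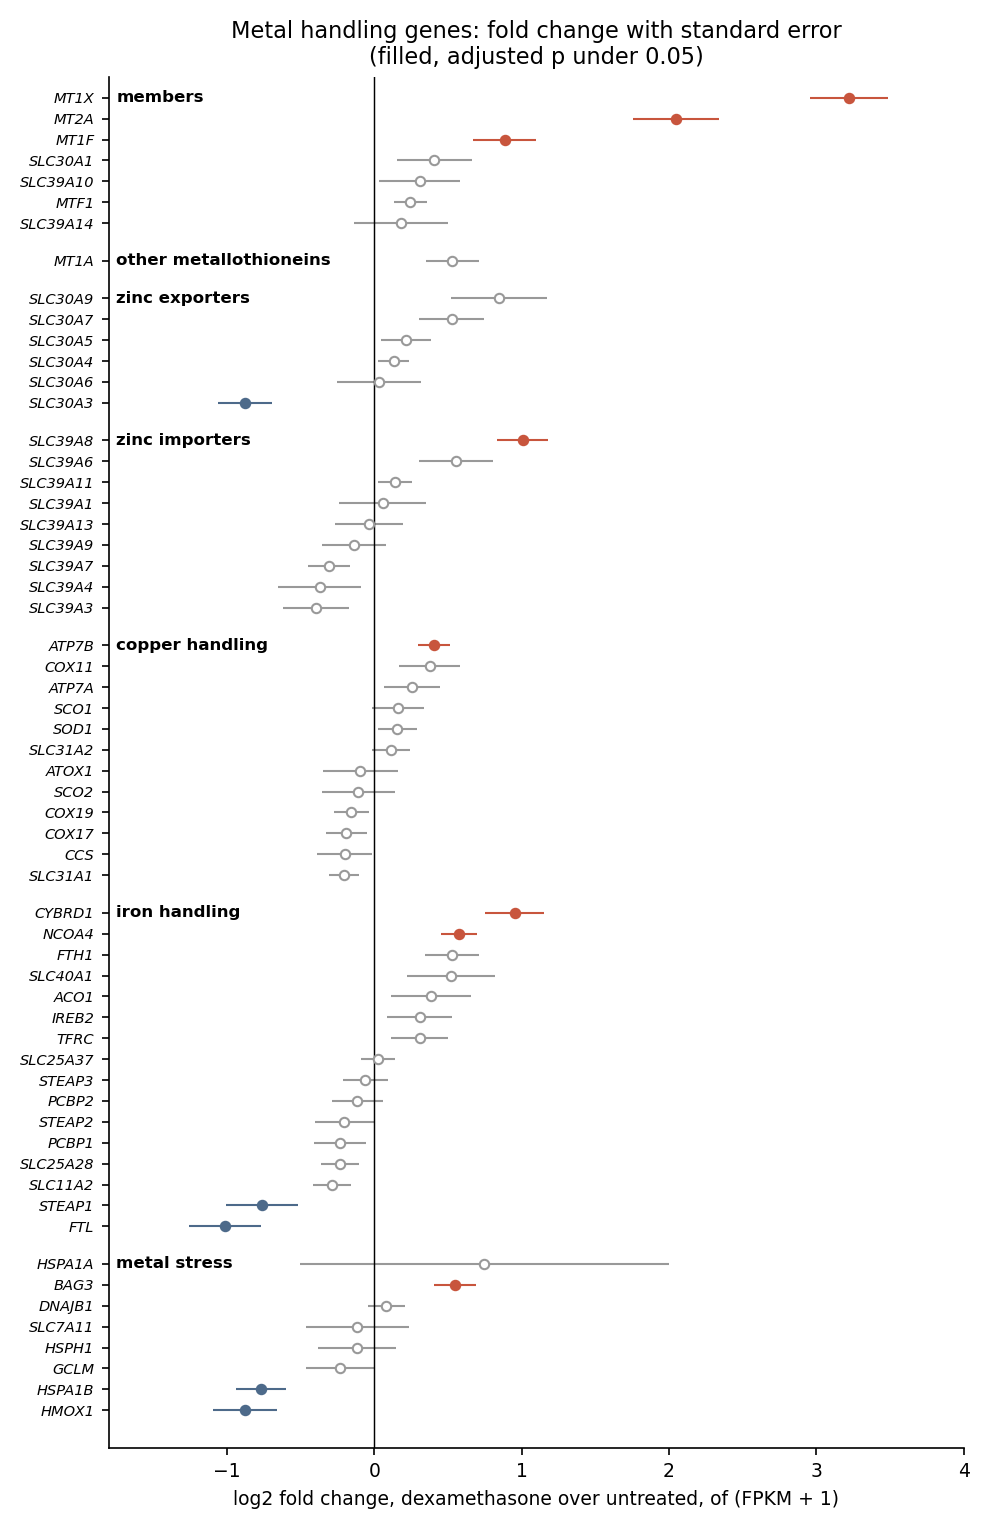
Log2 fold change of FPKM + 1 with its standard error as bars, for the tested members and for the tested genes of each metal-handling list, filled where the limma adjusted p was under 0.05. MT1X at 3.22 and MT2A at 2.05 lie above every other gene drawn, and SCO2, a symbol of 2 gene identifiers, is drawn for 1 of them.

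Across the series, the glucocorticoid-induced genes FKBP5, TSC22D3 and PER1 were higher in every dexamethasone well than in any untreated well. Steps between low FPKM values corresponded to an estimated 24850000 to 28660000 fragments per library, which puts roughly 1641 to 11992 fragments on MT2A, 264 to 4430 on MT1X and 23 to 100 on MT1F. Of 6 epithelial markers, 5 reached 1 FPKM, while EPCAM stayed below that in every library. COL1A2, PTPRC and CD3E were at 0 throughout, and summed fibroblast markers were 1.69 to 2.66 FPKM untreated and 0.581 to 0.825 FPKM with dexamethasone. COL1A1 made up most of that sum in the untreated wells, at 2.05 ± 0.370 FPKM, and was at 0.366 ± 0.0715 FPKM with dexamethasone (SD, n = 4). DCN was listed at 0 in every untreated well and at 0.172 to 0.383 FPKM in the dexamethasone wells. It exceeded COL1A1 in dexamethasone wells 4 (0.281 against 0.267 FPKM) and 5 (0.383 against 0.360 FPKM). Of the immune markers CD68 and CD14 reached 1 FPKM, the sum of that list was 5.32 to 9.13 FPKM untreated and 2.98 to 4.05 FPKM with dexamethasone, and the part of these markers in the results was not tested.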

How the data were processed

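RNA of 8 wells, 4 per group by title, was compared. Per the submitters' processing notes, the authors used FastQC 0.11.9, cutadapt 3.4, STAR 2.7.9a on GRCh38, featureCounts (Subread 2.0.3) and DESeq2 1.32.0. The step that made the deposited values is not given in the sources used here. The deposited values are not whole numbers, and no source names their unit. The values as deposited were inferred here to be FPKM from their sums and transcript lengths, so no count test was run. In each library 40.6% to 46.4% of low values came within 0.1 of whole fragments, so counts were not recovered. The share by chance is 20% at a fixed depth, but the depth was chosen to give the largest share, so the 2 are not alike. TMM factors (trim 0.3 of M and 0.05 of A values) were computed here on FPKM. log2(FPKM + 1), which understates folds of low genes, was fitted in R 4.3.3 by limma 3.58.1 (trend and robust, two-sided, group only) for genes with at least 0.5 FPKM in 4 libraries. Genes named are the members, other metallothioneins, 3 glucocorticoid targets, the 2 called genes of smallest p per list and direction, and the 5 genes most like the metallothionein sum, of which 1 is not reported here. Cell type markers were listed apart. HSPA1A, FTH1 and the flanking genes OGFOD1, BBS2, NUP93 and HERPUD1 were added after their values were seen. Members and lists were chosen with earlier results of these data known. The main fit did not pair wells by the replicate numbers that the groups share, and whether these numbers pair wells was not settled. The alternatives were scaling, pseudocount, filter, moderation, a replicate block, GC and length trends and left-out libraries.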

Additional observations from a re-analysis of the deposited data

Results flagged for a closer look

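Of 77 groups of 4 wells that were examined, 21 held 1 well far from the other 3. Chance flags about 1 in 20 independent groups. These are not independent: the metallothionein sum restates MT2A, and FAM160B2, ABCF2, HGS and CCDC86 were chosen for their likeness to it, so the counts are a description. The far well was number 5 in 20 of these, 14 untreated and 6 with dexamethasone. Each value below is set against the range of the other 3 wells of its group. In untreated well 5, MT2A was 322.4 FPKM against 145.5 to 162.1, MT1X was 48.1 FPKM against 22.8 to 26.5, and the metallothionein sum was 374.0 FPKM against 170.9 to 190.8. Metallothioneins held 0.0824% of all FPKM in that well, against 0.0517% to 0.0549%. In dexamethasone well 5, MT2A was 1124 FPKM against 627.8 to 698.8, MT1F was 8.84 FPKM against 4.41 to 4.87, and the metallothionein sum was 1545 FPKM against 857.1 to 956.2. Other genes with short transcripts held 8.65% of all FPKM there, against 7.29% to 7.42%. Among the named metal-handling and neighbouring genes of untreated well 5, FTL was 12501 FPKM against 6456 to 7181, HMOX1 was 160.9 FPKM against 94.6 to 103.7, HSPA1B was 203.2 FPKM against 147.0 to 154.0, all high, while CYBRD1 was 6.76 FPKM against 11.4 to 12.2 and OGFOD1 was 11.7 FPKM against 14.4 to 14.5, both low. Genes most like the metallothionein sum were high there too: FAM160B2 was 22.6 FPKM against 12.1 to 13.3, ABCF2 was 65.1 FPKM against 42.6 to 45, HGS was 77.2 FPKM against 46.2 to 50.8 and CCDC86 was 97.3 FPKM against 56.4 to 61.4. In dexamethasone well 5, FAM160B2 was 19.6 FPKM against 12 to 13.2 and ABCF2 was 44.9 FPKM against 32.4 to 34.5. Untreated well 5 had 14798 genes above 0, against 15118 to 15182. The remaining well was dexamethasone well 3, where MT3 was 0.116 FPKM against 0 to 0.0118.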

How the results depend on the processing

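MT1F, MT1X and MT2A were the members called in all 19 alternatives to the main analysis, with log2 fold changes of 0.68 to 1.10, 3.04 to 3.46 and 1.86 to 2.32. The metallothionein sum differed by 2.10 to 2.55 on the log2 scale over its 13 alternatives, a range set by leaving out single libraries. Over all genes 3251 were called, 2317 to 3846 with 1 library left out and 5514 without both libraries numbered 5. Metal-handling genes called were 10, with 7 to 13 when 1 library was left out, 18 without both libraries numbered 5 and 19 with the GC trend removed, which called 4524 genes in all. Whether shared replicate numbers pair the wells was not settled: correlations of same-numbered wells' deviations were 0.292, 0.066, 0.315 and 0.713, 3 of the 4 above 0.1. Dexamethasone wells 3, 4 and 5 and untreated wells 1 and 5 were most like their own number, while untreated wells 3 and 4 were most like dexamethasone well 1. A replicate block called 5747 genes and 18 metal-handling genes, and the replicate block with the GC trend removed called 5320 and 20. SLC39A10 turned to -0.052 and OGFOD1 to -0.054 with the GC trend removed, with or without the replicate block. SLC39A14 ranged from -0.044, without untreated well 5, to 0.36 with 1 library left out. MT1A was called in 8 of the 19, among them the replicate block (adjusted p = 0.00731). Without scaling between libraries 38.5% of calls were higher, against 46.5%, and the median of all genes moved by at most 0.02. Causes of these shifts were not tested. Fold changes and GC content were related across 12130 genes (Spearman rho -0.455, genes not being independent replicates). Depth limits MT1F, at a rough estimate of 23 to 100 fragments per library. Ratios, flanking genes and likeness were added after seeing the data.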
